A study of Homo sapiens with 4 samples.

Results

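The zinc finger genes of chromosome 19 were taken as the protein-coding genes of that chromosome whose symbol starts with ZNF in the GRCh37 (hg19) annotation of GENCODE 44. They were 249 of 20098 protein-coding genes on chromosomes 1 to 22 and X, with 85 on 19p and 164 on 19q, and chromosome 19 held 1231 other protein-coding genes. Their label was checked against the coding sequence: 245 of the 249 encoded 3 or more C2H2 motifs in the canonical transcript, with a median of 12 and a maximum of 39. Of the other 4, ZNF428 had 1 motif, the readthrough genes ZNF625-ZNF20 and ZNF816-ZNF321P had 0, and the coding frame of ZNF274 was broken in this annotation of the build.

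A C2H2 zinc finger is a short fold in which cysteines and histidines hold a zinc ion, and a tandem array of fingers reads a stretch of DNA. Most ZNF genes of chromosome 19 arose by tandem duplication, and many carry a KRAB domain that recruits TRIM28 and, through it, the histone methyltransferase SETDB1, which silences retrotransposons and other targets. The finger array typically lies in the last exon, a region known in other cells for H3K9me3 and binding of the same silencing machinery, whereas the promoters of these genes are commonly CpG islands. In the canonical transcripts here, 3091 of 3154 C2H2 motifs (98%) were encoded by the last exon, so last-exon tiles cover most of the finger arrays. They also cover 3' untranslated bases and were not split into coding and untranslated ones. No chromatin mark was analysed here.

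The samples were clones of the ovarian cancer cell line SKOV3, profiled by reduced representation bisulfite sequencing (RRBS). Of the mesenchymal (M) clones, shC-S had a control shRNA, and LY75-R-S had LY75, an antigen receptor, restored by an shRNA-resistant form after knockdown. Of the epithelial (E) clones, sh-LY75-S had LY75 suppressed by shRNA and LY75-KO-S had it inactivated by CRISPR. Each clone gave 1 library, 4 in all, so within a single comparison clone, library and LY75 status cannot be told apart. No value per library was used here, and no test between conditions was made. The knockdown comparison set shC-S against sh-LY75-S, and the knockout comparison set LY75-R-S against LY75-KO-S. The mix set both M clones against both E clones, which uses the same 4 libraries again. For each, the authors deposited a list of 1000 bp tiles whose methylation differed past their thresholds. A tile on a list is called listed here. A tile that is missing from a list may have been equal between the libraries or too thinly read, and no read number was held, so the depth behind the lists is unknown. Only tile positions were used, and hence nothing below says which clone had more methylation.

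RRBS reads the ends of DNA fragments cut by MspI at CCGG, so what could be listed depends on where CCGG lies. Tiles were called reachable when an end of 50 bases of an MspI fragment of 40 to 220 bp held a CpG. CCGG occurred in 1150 of 1562 ZNF promoter tiles (73.6%, against 69% of 123559 promoter tiles of all protein-coding genes), and 703 of the 1562 were reachable (45%, against 41.7%). In last exons 172 of 1134 tiles were reachable (15.2%), and over all protein-coding genes 10811 of 51354 (21.1%). The fragments printed next show this substrate, on hg19, in the orientation of the gene, with CCGG in capitals on both ends. By construction each starts and ends with the site, which reads the same on both strands. The first set comes from promoter tiles that stood on both single lists, and each fragment is the one richest in CpGs that held no UTR base. It lay upstream of the annotated gene in ZNF845 and ZNF20 and in an intron in ZNF347, ZNF850, ZNF491 and ZNF85.
ZNF845, chr19:53836795-53836868, plus strand: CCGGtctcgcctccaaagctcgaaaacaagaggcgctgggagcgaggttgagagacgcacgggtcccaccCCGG
ZNF20, chr19:12251212-12251302, minus strand: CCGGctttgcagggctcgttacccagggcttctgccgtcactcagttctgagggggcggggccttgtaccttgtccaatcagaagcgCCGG
ZNF347, chr19:53661501-53661599, minus strand: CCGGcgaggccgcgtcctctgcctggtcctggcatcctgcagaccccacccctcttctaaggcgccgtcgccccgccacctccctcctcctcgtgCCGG
ZNF850, chr19:37262527-37262613, minus strand: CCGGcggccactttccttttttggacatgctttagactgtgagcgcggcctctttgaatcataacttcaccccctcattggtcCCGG
ZNF491, chr19:11909642-11909733, plus strand: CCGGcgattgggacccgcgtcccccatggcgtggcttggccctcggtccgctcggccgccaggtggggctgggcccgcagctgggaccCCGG
ZNF85, chr19:21106259-21106388, plus strand: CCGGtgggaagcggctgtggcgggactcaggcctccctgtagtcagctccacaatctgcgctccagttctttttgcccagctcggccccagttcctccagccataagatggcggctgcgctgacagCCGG
The fragments held 5 to 11 CpGs in 74 to 130 bases. The next fragment comes from the coding part of the last exon of ZNF100, which encodes its finger array, in a tile that stood on all 3 lists. It had 2 CpGs in 88 bases, and both belong to its CCGG sites.
ZNF100, chr19:21910130-21910217, minus strand: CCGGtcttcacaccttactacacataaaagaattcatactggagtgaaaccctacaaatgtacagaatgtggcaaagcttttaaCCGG
The last pair comes from the tiles with the transcription start site (TSS) of ZNF44 and ZNF611, genes with many reachable tiles and none of them on any list. These intronic fragments held 11 CpGs in 97 bases and 8 CpGs in 104 bases.
ZNF44, chr19:12405333-12405429, minus strand: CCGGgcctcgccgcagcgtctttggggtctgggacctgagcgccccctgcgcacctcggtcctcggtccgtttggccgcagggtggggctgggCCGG
ZNF611, chr19:53238055-53238158, minus strand: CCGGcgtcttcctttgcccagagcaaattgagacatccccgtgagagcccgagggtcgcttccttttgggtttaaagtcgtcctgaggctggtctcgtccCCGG

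A smaller share of ZNF genes than of other genes of the chromosome had a listed tile. As a ratio, the gap was larger in spans and last exons than in promoters. Between spans and promoters it was nearly equal in the knockout comparison. With the gene span extended by 2 kb on each side, 119 of 249 ZNF genes (47.8%) had a tile listed in the knockdown comparison, beside 55.4% of all protein-coding genes and 70.6% of the other genes of chromosome 19. The count was 76 ZNF genes (30.5%) in the knockout comparison, beside 42.3% and 52.6%. In the mix it was 75 (30.1%), beside 34.5% and 43.9%. The list of the knockdown comparison was the longest, with 51243 tiles in all and 239 at ZNF genes. the knockout comparison had 28282 tiles with 113 at ZNF genes, and the mix 20986 with 112. Over the lists, 319 distinct tiles touched 147 ZNF genes, and 102 ZNF genes had none. Matching counts over all protein-coding genes are not given here, so these 2 counts have no background. The differences of ZNF genes from the rest of the genome were not tested, here and below.

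For promoters, defined as tiles within 2 kb of a TSS, ZNF genes stood closer, as a ratio, to all protein-coding genes than for last exons. A listed promoter tile was found at 83 ZNF genes (33.3%) in the knockdown comparison, beside 30.2% of all protein-coding genes. There were 33 (13.3%) in the knockout comparison, beside 14.3% (with promoters of 5 kb 53, or 21.3%, beside 22.6%), and in the mix 48 (19.3%), beside 15.2%. The other genes of chromosome 19 had promoter shares of 40.6%, 21.9% and 20%, above the ZNF genes in each list and by most, as a ratio, in the knockout comparison. For last exons outside promoters the counts were small. They were 7 ZNF genes (2.81%) in the knockdown comparison, beside 7.44% of all protein-coding genes, 6 (2.41%) in the knockout comparison, beside 4.99%, and 3 (1.2%) in the mix, beside 3.24%. Among the other genes of chromosome 19 the last-exon shares were 12.9%, 8.94% and 6.82% in the same order. With the last exon of any basic transcript the ZNF counts were 10, 10 and 5. Shares of other genes under that setting are not given here.

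**Figure D1:**
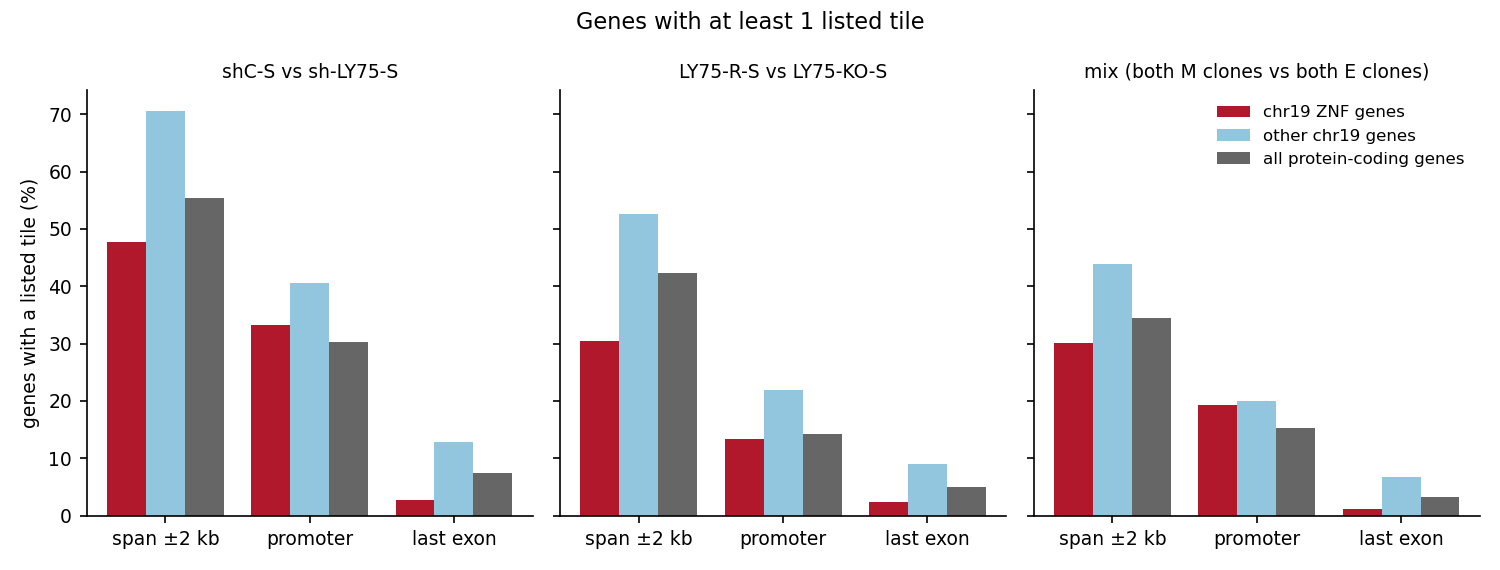
Percent of genes with at least 1 listed tile (vertical axis) in the span extended by 2 kb, in promoters and in last exons, for each of the 3 lists (panels) and for 249 ZNF genes, 1231 other chromosome 19 genes and 20098 protein-coding genes (bars). ZNF genes are lowest for spans and last exons in each panel, while for promoters in the knockdown comparison they reach 33.3%, between the 30.2% of all genes and the 40.6% of the other chromosome 19 genes.

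Shares of reachable tiles set aside how many fragments a gene offers. Of the 703 reachable promoter tiles, 107 (15.2%) were listed in the knockdown comparison, beside 15.1% of 51489 over all protein-coding genes. Listed in the knockout comparison were 31 (4.41%), beside 5.39%, and in the mix 56 (7.97%), beside 6.45%. Of the 172 reachable last-exon tiles, 4 (2.33%) were listed in the knockdown comparison, beside 12.6% of 10811 over all genes. The same number, 4 (2.33%), was listed in the knockout comparison, beside 7.71%, and 3 (1.74%) in the mix, beside 5.31%. In each single comparison 3 of the 7 listed last-exon tiles lay outside the reachable set. Last exons thus had the lowest listed share among the tile classes of ZNF genes in all 3 lists. Over all genes they ranked second to promoters in the knockdown comparison and first in the knockout comparison. In the mix they stood, over all genes, at 5.31%, below promoters (6.45%) and the 2 kb flanks (5.77%).

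Introns had a listed share between those of promoters and last exons in the knockdown comparison and the mix, and above both in the knockout comparison. Of 933 reachable intron tiles, 88 (9.43%) were listed in the knockdown comparison, 50 (5.36%) in the knockout comparison and 34 (3.64%) in the mix, beside 10.3%, 6.12% and 4.25% over all genes. Exons other than the last gave 7 of 130 (5.38%), 9 (6.92%) and 5 (3.85%), beside 11.6%, 6.96% and 4.6%. Many of the intron tiles belonged to a single long gene, ZNF536, and without it the ZNF intron shares were 7.73%, 4.23% and 2.66%. Without the same gene the promoter shares were 15%, 4.47% and 7.64%, so that introns were no longer above promoters in the knockout comparison, the last-exon shares were unaltered, and those of the other exons were 3.28% (4 of 122), 6.56% and 3.28%.

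**Figure D2:**
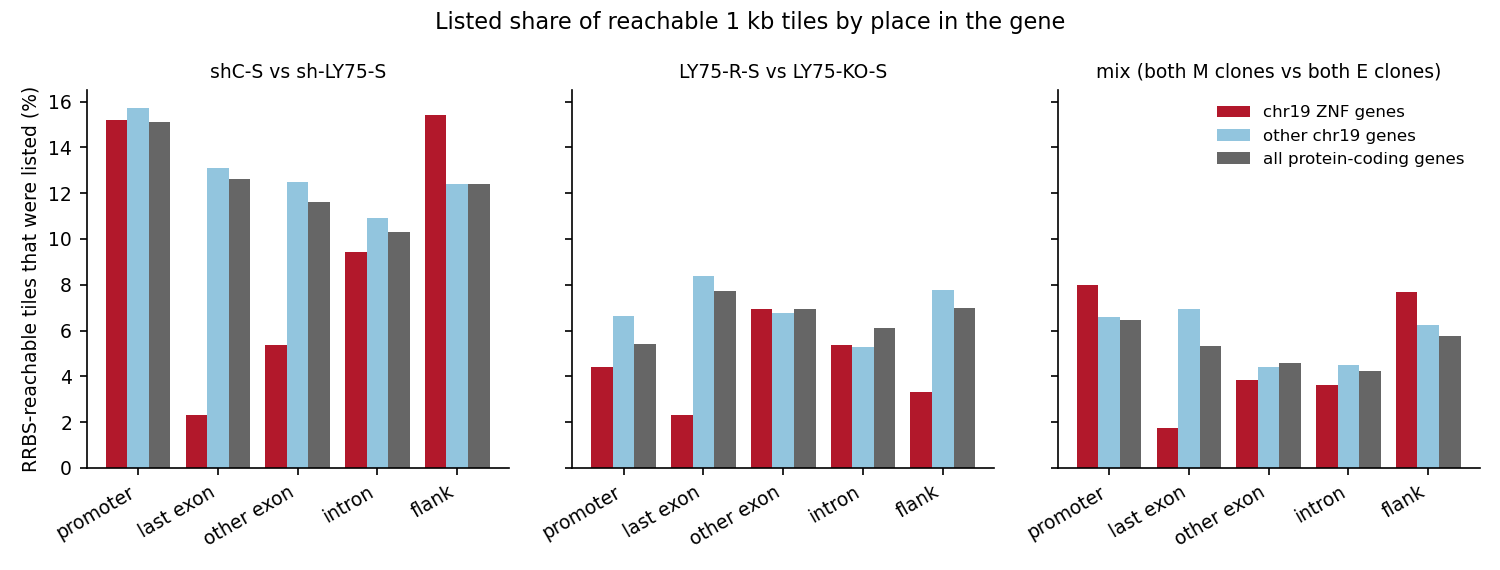
Percent of RRBS-reachable 1000 bp tiles that were listed (vertical axis) by place in the gene, for each list (panels) and gene set (bars). In the knockdown panel the ZNF bar is level with the others in promoters (15.2% against 15.1% over all genes) and far shorter in last exons (2.33% against 12.6%).

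The number of CpGs and the uniqueness of the reads were measured beside the last-exon result. Reachable last-exon tiles of ZNF genes had a median of 4 reachable CpGs, beside 5 over all genes. With 3 or more reachable CpGs required, 3 of 114 (2.63%), 2 (1.75%) and 2 (1.75%) were listed, beside 13%, 7.18% and 5.43% of 7882 over all genes. Since ZNF genes are paralogs, each fragment end was also converted as bisulfite would convert it and looked up among all MspI fragment ends of the genome. An end that occurred only once was present in 129 of 172 reachable last-exon tiles (75%), beside 88.5% over all genes, and in 594 of 703 promoter tiles (84.5%), beside 90.4%. Among the 129 last-exon tiles with such an end, 4 (3.1%), 4 (3.1%) and 3 (2.33%) were listed, beside 14.2%, 8.64% and 5.97%. These last-exon shares rest on 2 to 4 listed tiles per list, and the cause of the low share was not tested.

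The last-exon tiles that were listed belonged to 11 ZNF genes, named here after their values were seen. In the knockdown comparison they were in ZNF66, ZNF429, ZNF100, ZNF574, ZNF616, ZNF444 and ZNF135. In the knockout comparison they were in ZNF429, ZNF100, ZNF850, ZNF835, ZNF264 and ZNF550, and ZNF850 had 2 such tiles. In the mix they were in ZNF100, ZNF850 and ZNF444. The tiles of ZNF66 (chr19:20989001-20990000), ZNF574 (chr19:42583001-42584000) and ZNF616 (chr19:52619001-52620000) were coding over all 1000 bases. Those of ZNF264 (chr19:57732001-57733000) and 1 of ZNF850 (chr19:37235001-37236000) held no coding base and lay in the 3' untranslated part. The tile of ZNF444 (chr19:56670001-56671000) held 8 coding bases, and that of ZNF835 (chr19:57174001-57175000) held 45. The rule of an identical last-exon tile in both single comparisons picked ZNF429 (chr19:21720001-21721000, 877 coding bases) and ZNF100 (chr19:21910001-21911000, 791 coding bases), both on 19p. ZNF429 encodes 15 C2H2 motifs and ZNF100 encodes 11. The tiles given here for ZNF66, ZNF616, ZNF264 and ZNF429, and the untranslated one of ZNF850, lay outside the reachable set.

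Within promoters, the tile that holds the TSS differed between the lists. In the knockdown comparison 48 of the 215 reachable tiles with a canonical TSS (22.3%) were listed at ZNF genes, beside 13.6% of 14586 over all genes and 13.9% of 934 at the other genes of the chromosome. In the mix the ZNF share was 31 of 215 (14.4%), beside 6.02% and 6.42%. In the knockout comparison it was 7 of 215 (3.26%), beside 3.23% and 3.96%, so ZNF start sites were level with the genome in that comparison. The mix contains the libraries of both single comparisons and gives no separate evidence. Over the basic transcripts of the ZNF genes, 58 of the 110 listed promoter tiles in the knockdown comparison held a TSS (52.7%), as did 9 of 36 in the knockout comparison (25%) and 39 of 58 in the mix (67.2%). For all protein-coding genes these shares were 36.1%, 26.4% and 36.8%.

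With distance from the canonical TSS, the ZNF share in the knockdown comparison was lower on both sides. It was 11.8% of 110 reachable tiles at 1 kb upstream and 6.59% of 91 at 2 kb upstream, 16.7% of 138 at 1 kb downstream and 6.06% of 66 at 2 kb downstream. Over all protein-coding genes the same positions gave 14.8%, 13.2%, 15.6% and 16.1%, a flat course. The ZNF share in the knockout comparison was highest 3 kb upstream, where 8 of 74 tiles (10.8%) were listed, beside 6.35% over all genes, and lowest 2 kb downstream, where 1 of 66 (1.52%) was, beside 6.95%.

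**Figure D3:**
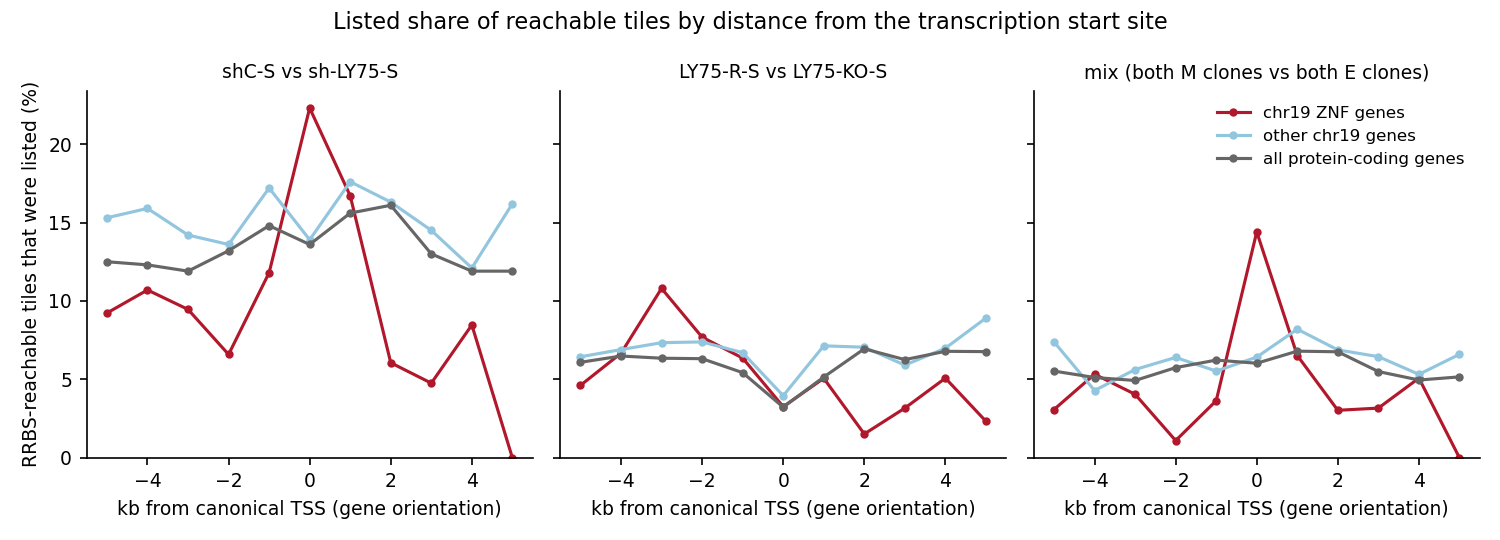
Percent of RRBS-reachable tiles that were listed (vertical axis) by distance of the tile midpoint from the canonical TSS in kb, negative upstream, for each list (panels) and gene set (lines). The ZNF line peaks at the TSS at 22.3% in the knockdown comparison and 14.4% in the mix, and stands at 3.26% there in the knockout comparison.

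Listed ZNF promoter tiles in the knockdown comparison were CpG-rich. They had a median of 42 CpGs (lowest 12, highest 94), against 33 in the 575 reachable promoter tiles that were on no list, while those of the knockout comparison had a median of 28 and those of the mix 43. The share that was listed in the knockdown comparison was higher with more reachable CpGs. It was 4 of 92 tiles (4.35%) with 1 to 2, 32 of 285 (11.2%) with 3 to 9, 30 of 157 (19.1%) with 10 to 19 and 41 of 169 (24.3%) with 20 or more. Over all protein-coding genes the shares were 14%, 13.4%, 17.8% and 15.8%. In the mix the ZNF shares were 4.35%, 3.86%, 11.5% and 13.6%, beside 5.78%, 5.52%, 7.58% and 7.09% over all genes. In the knockout comparison the ZNF shares had no steady course, with 6.52%, 3.51%, 6.37% and 2.96%, while those of all genes were lower with more reachable CpGs, with 8.58%, 6.74%, 5.87% and 2.38%.

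**Figure D4:**
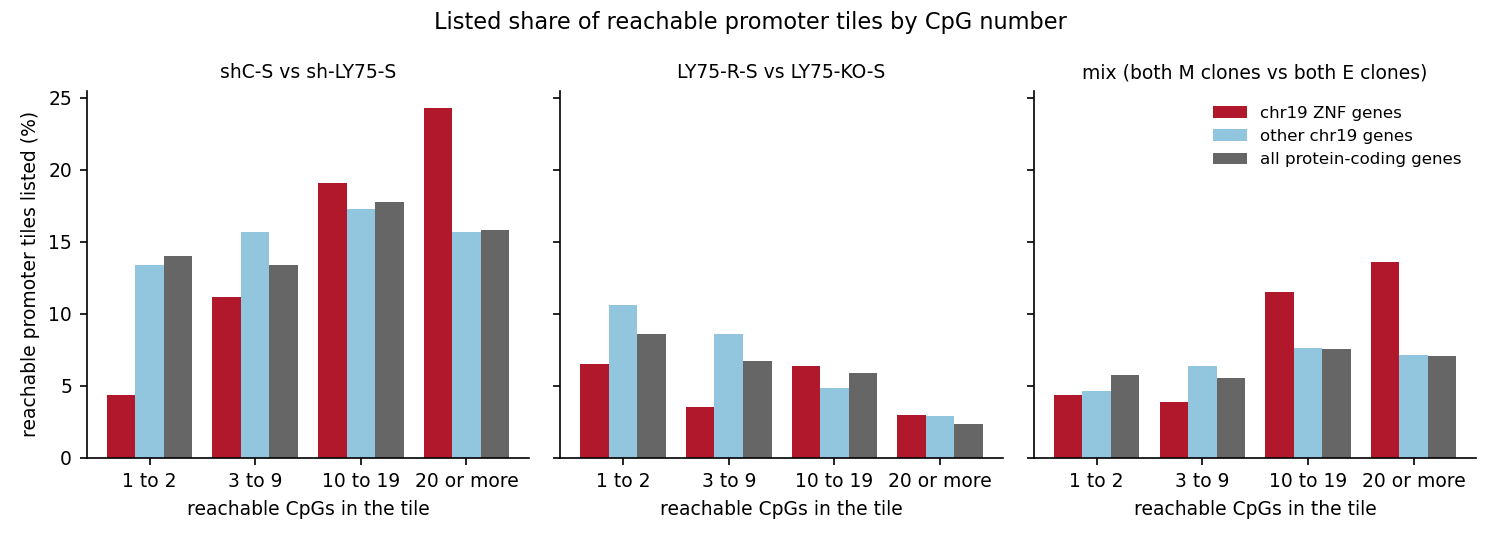
Percent of reachable promoter tiles that were listed (vertical axis) by the number of reachable CpGs per tile, for each list (panels) and gene set (bars). The ZNF bars range from 4.35% with 1 to 2 CpGs to 24.3% with 20 or more in the knockdown comparison, and the bars of all protein-coding genes stay between 13.4% and 17.8%.

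The single comparisons share no library, although LY75-R-S was itself made from LY75 knockdown cells. A promoter tile was listed in both for 16 ZNF genes, which is 19.3% of the 83 in the knockdown comparison and 48.5% of the 33 in the knockout comparison. Over all protein-coding genes the corresponding shares were 28.1% and 59.5%. The counts depended on the width: with promoters of 5 kb there were 29 ZNF genes in both, 28.7% of 101 and 54.7% of 53, beside 38.2% and 65.7% over all genes. At 11 of the 16 genes the identical tile was listed, 13 tiles in all, which is 11.8% of 110 and 36.1% of 36 listed ZNF promoter tiles, beside 12.8% and 34.4% over all genes. Of the 13 tiles, 5 held a TSS (38.5%, beside 32.1% over all genes) and 8 did not. Of 239 and 113 listed tiles over the whole extended spans, 39 were identical (16.3% and 34.5%), beside 15.4% and 28.2% over all genes.

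Among the genes with an identical promoter tile, ZNF850 and ZNF415 had 2 such tiles each. In ZNF850 they flanked the start, at chr19:37262001-37263000 with 31 CpGs and chr19:37264001-37265000 with 27 CpGs. In ZNF415 they were at chr19:53627001-53628000 with 16 CpGs and chr19:53636001-53637000 with 27 CpGs. The former lay outside the reachable set, and the latter held a TSS. A TSS also lay in the tiles of ZNF491 (chr19:11909001-11910000, 58 CpGs), ZNF20 (chr19:12251001-12252000, 33 CpGs) and ZNF85 (chr19:21106001-21107000, 50 CpGs). ZNF728, the only gene beyond the limit of 10 and named after its values were seen, had a shared tile with a TSS (chr19:23185001-23186000, 43 CpGs) that was also listed in the mix. The tiles of ZNF426 (chr19:9648001-9649000, 21 CpGs), ZNF431 (chr19:21325001-21326000, 25 CpGs) and ZNF845 (chr19:53836001-53837000, 46 CpGs) ended 64, 158 and 2 bp from the nearest TSS. The tiles of ZNF347 (chr19:53661001-53662000, 54 CpGs) and ZNF581 (chr19:56156001-56157000, 38 CpGs) were 306 and 825 bp from it. In the knockdown comparison ZNF426, ZNF431, ZNF347, ZNF845 and ZNF415 had a second promoter tile listed directly beside the shared one, so that a block of 2 tiles was listed, and in the knockout comparison 1 of the 2 was.

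The genes with the most listed tiles were led by ZNF536, a repressor of neuronal differentiation that spans 489 kb on 19q (chr19:30715798-31204493, plus strand) apart from the clusters. It had 50 distinct listed tiles, of which 36 were on the list of the knockdown comparison, 18 on that of the knockout comparison and 16 in the mix. Of the 50, 41 were intronic, 4 lay in exons, 4 in promoters and 1 in the flank, and the gene had 123 reachable tiles. At its first TSS a block of 3 tiles (chr19:30715001-30718000) was listed in the knockdown comparison and none of the 3 in the knockout comparison. The single lists shared 7 of its tiles.

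The other genes of this kind had 5 to 9 listed tiles. ZNF98, on 19p and 141 kb long, had 9, all in introns and all listed in the knockdown comparison, and 4 of them were also listed in the knockout comparison. At the shared start of ZNF559 and the readthrough gene ZNF559-ZNF177, 4 adjacent tiles (chr19:9432001-9436000) were listed, the upstream pair in the knockout comparison and the downstream pair in the knockdown comparison. ZNF331, which is imprinted and is known to be methylated in several carcinomas, had 6. Its tile at chr19:54041001-54042000, with 88 CpGs, and that at chr19:54058001-54059000, with 45 CpGs, held a TSS and were listed in the knockdown comparison and the mix, and its tile at chr19:54060001-54061000 was listed in the knockout comparison and the mix. The tile with 88 CpGs lay outside the reachable set. ZNF541, a germ cell factor, had 6, and the tile of its TSS (chr19:48076001-48077000, 94 CpGs) was listed in the knockdown comparison alone. ZNF850 and ZNF347 had 6 each, and 5 of those of ZNF850 were listed in the knockout comparison. The tiles of ZNF347 at chr19:53627001-53628000 and chr19:53635001-53637000 were also counted as promoter tiles of the overlapping gene ZNF415. ZNF577 had 5, all intronic, and ZNF525 had 5, of which 1 was a promoter tile.

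Runs of adjacent listed tiles at ZNF genes numbered 26 in the knockdown comparison, with 54 of the 239 tiles (22.6%) in them and no run beyond 3 tiles. There were 5 runs in the knockout comparison (8.85% of its tiles) and 6 in the mix (11.6%). The shares of listed tiles with a listed neighbor were 21.3%, 7.36% and 11.4% over all protein-coding genes, and 26.4%, 10.4% and 15.3% at the other genes of chromosome 19, so ZNF genes lay between these sets. Besides the one at the start of ZNF536, a run of 3 tiles lay at the promoter of ZNF763 (chr19:12074001-12077000), a gene outside the naming rule that was picked after its values were seen, and was listed in the mix as well.

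At the other end, 5 genes had many reachable tiles and no listed one. These were ZNF44 with 22 reachable tiles, ZNF529 with 21, ZNF586 with 20, and ZNF91 and ZNF611 with 18 each. Such counts were not limited to tiles with a fragment end that occurs only once in the genome. ZNF91 represses SVA retrotransposons and encodes 32 C2H2 motifs. The reachable promoter tiles among these numbered 4 in ZNF44, 4 in ZNF529, 3 in ZNF586, 3 in ZNF91 and 8 in ZNF611.

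By chromosome arm, more of the ZNF genes on 19p than on 19q had a listed tile. The shares of reachable tiles over whole extended spans were similar with ZNF536 counted. Of 85 genes on 19p, 52 (61.2%) had a tile listed in the knockdown comparison, against 67 of 164 (40.9%) on 19q. In the knockout comparison the shares were 36.5% and 27.4%, and for the mix 38.8% and 25.6%. The other genes of the chromosome differed in the same direction, with 75% on 19p and 66.9% on 19q in the knockdown comparison. Of the reachable tiles over the extended spans of ZNF genes, 11.1% of 741 on 19p and 10.7% of 1288 on 19q were listed in the knockdown comparison, 4.18% and 5.12% in the knockout comparison, and 5.26% and 5.12% in the mix. ZNF536 alone held 123 of the 1288 reachable tiles on 19q. Of its tiles 25.2%, 13% and 13% were listed in the same order, so it raised the 19q share in each list. None of these differences between the arms was tested. Among reachable tiles with a canonical TSS, 24 of 76 (31.6%) on 19p and 24 of 139 (17.3%) on 19q were listed in the knockdown comparison. The other genes of the chromosome gave 12.6% and 15.1%. For the knockout comparison the ZNF shares were 5 of 76 (6.58%) and 2 of 139 (1.44%), beside 4.04% and 3.89% at the other genes. For the mix they were 17 (22.4%) and 14 (10.1%), beside 5.84% and 6.95%. Last exons were rarely listed on either arm. In the knockdown comparison they were listed for 3 of 85 ZNF genes on 19p (3.53%) and 4 of 164 on 19q (2.44%). The other genes of the chromosome gave 16% and 10.4%. In the knockout comparison the ZNF counts were 2 (2.35%) and 4 (2.44%), beside 9.69% and 8.31% of the other genes.

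Split at gaps of 500 kb or more without a ZNF gene, the genes formed 20 clusters, and the arms were not uniform. In the 19p cluster from ZNF101 to ZNF254 (chr19:19779605-24312770, 37 genes), 22 genes (59.5%) had a promoter tile listed in the knockdown comparison, 8 (21.6%) in the knockout comparison and 12 (32.4%) in the mix. In the 19q cluster from ZNF175 to ZNF331 (chr19:52074536-54083523, 40 genes) the numbers were 18 (45%), 7 (17.5%) and 11 (27.5%). The 19q cluster from ZNF575 to ZNF180 (chr19:44029649-45004576, 23 genes) had 1 gene (4.35%), 1 (4.35%) and 0. The most distal cluster, from ZNF264 to ZNF446 (43 genes), had 10 (23.3%), 1 (2.33%) and 6 (14%), and the 5 genes from ZNF302 to ZNF792 had none. Over all protein-coding genes the promoter shares were 30.2%, 14.3% and 15.2% in the same order of lists.

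The clusters also differed in how many tiles RRBS can reach. The cluster from ZNF575 to ZNF180 had 4.43 reachable tiles per gene and that from ZNF302 to ZNF792 had 2.6, against 9.27 from ZNF101 to ZNF254 and 8.68 from ZNF175 to ZNF331. Restricted to reachable tiles with a canonical TSS, 13 of 33 (39.4%) were listed from ZNF101 to ZNF254 and 12 of 34 (35.3%) from ZNF175 to ZNF331 in the knockdown comparison. The same shares were 7 of 23 (30.4%) from ZNF653 to ZNF791, 6 of 38 (15.8%) from ZNF264 to ZNF446, 2 of 21 (9.52%) from ZNF565 to ZNF573, 1 of 15 (6.67%) from ZNF628 to ZNF835 and 1 of 19 (5.26%) from ZNF575 to ZNF180. Over all protein-coding genes 13.6% of 14586 reachable tiles with a canonical TSS were listed in that comparison. None of the differences between clusters was tested.

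**Figure D5:**
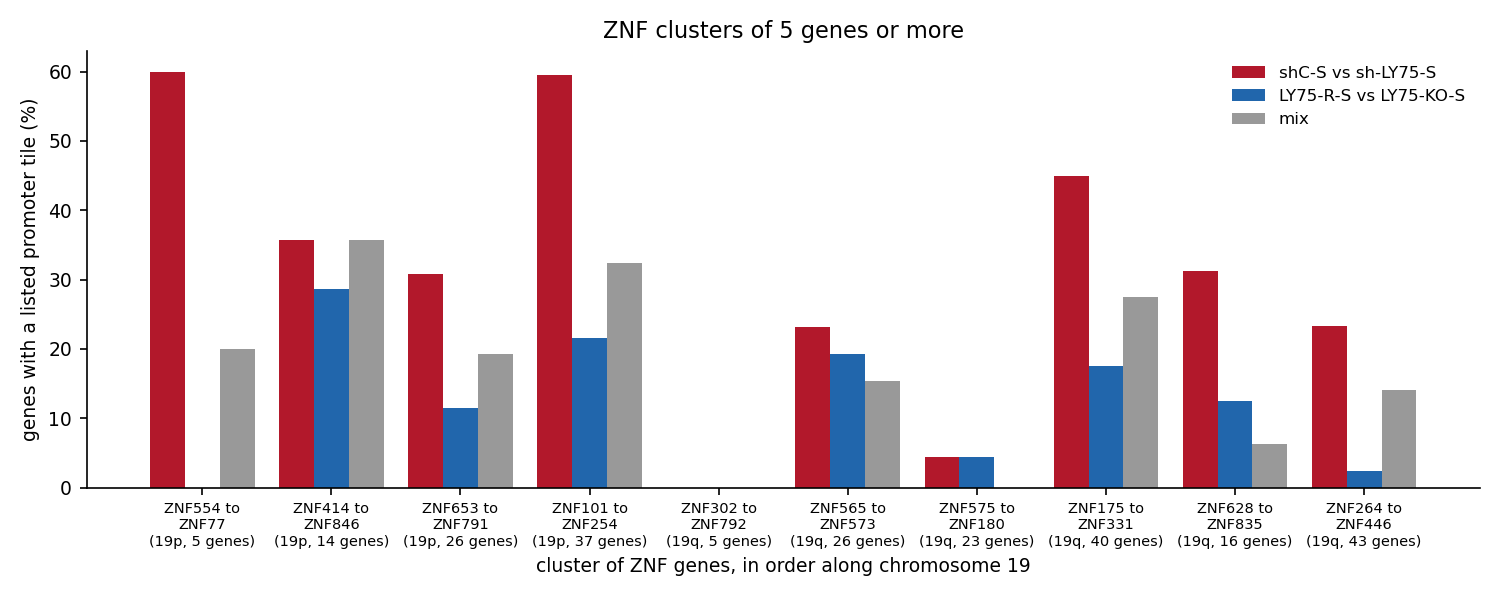
Percent of ZNF genes with a listed promoter tile (vertical axis) in the clusters of 5 genes or more, in order along the chromosome (horizontal axis), for the 3 lists (bars). In the knockdown comparison the share runs from 0 of 5 genes (ZNF302 to ZNF792) and 4.35% (ZNF575 to ZNF180) to 59.5% (ZNF101 to ZNF254) and 3 of 5 genes (ZNF554 to ZNF77). The share over all protein-coding genes, not drawn, was 30.2% in that comparison.

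Promoter shares were set out by the size of the finger array, and no difference between sizes or between lists was tested. In the mix they were lower with larger arrays. The genes with 1 to 9 motifs had the highest share in the knockdown comparison and the lowest in the knockout comparison. A promoter tile was listed in the knockdown comparison for 24 of 61 genes with 1 to 9 C2H2 motifs (39.3%), 31 of 103 with 10 to 14 (30.1%) and 27 of 82 with 15 or more (32.9%). In the knockout comparison the shares were 9.84%, 14.6% and 14.6%. In the mix they were 24.6%, 18.4% and 15.9%. As shares of reachable promoter tiles they were 15.8%, 14.5% and 14.8% in the knockdown comparison, and 3.39%, 4.95% and 4.8% in the knockout comparison. In the mix the tile shares were 9.04%, 8.25% and 6.11%, and these differences were not tested.

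Zinc finger genes of the chromosome with other symbols (ZFP, ZSCAN, ZBTB, KLF, ZIM and others, with PEG3) numbered 23. A promoter tile was listed for 9 (39.1%) in the knockdown comparison, 4 (17.4%) in the knockout comparison and 6 (26.1%) in the mix, beside 30.2%, 14.3% and 15.2% of all protein-coding genes. Of the 23, 6 (26.1%) had a listed last-exon tile in the knockdown comparison, namely KLF16, ZBTB7A, ZBTB32, ZSCAN5A, PEG3 and ZBTB45, as had 3 (13%) in the knockout comparison and 5 (21.7%) in the mix. The last-exon shares were 7.44%, 4.99% and 3.24% over all protein-coding genes and 12.9%, 8.94% and 6.82% at the other genes of chromosome 19. A reachable last-exon tile was present in 18 of the 23 genes (78.3%) and in 110 of the 249 ZNF genes (44.2%), so the sets differed in what could be listed. Such a tile was present in 64.7% of the other genes of chromosome 19 and 39.5% of all protein-coding genes. PEG3 and ZIM2, an imprinted pair with overlapping spans, had 3 listed tiles in common in the knockdown comparison and none in the knockout comparison.

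Of 21 genes of the silencing machinery that KRAB zinc finger proteins work through, 7 (33.3%) had a promoter tile listed in the knockdown comparison, 7 (33.3%) in the knockout comparison and 6 (28.6%) in the mix, beside the same 30.2%, 14.3% and 15.2%. TRIM28, the KRAB corepressor, had no tile on either single list and 1 promoter tile in the mix. SETDB1, the H3K9 methyltransferase that TRIM28 recruits, had no listed tile. UHRF1 and DNMT1, which copy DNA methylation after replication, had a listed promoter tile in each of the 3 lists. DNMT3B, a de novo methyltransferase, had 1 in each single list. CBX5, which encodes a heterochromatin protein that binds H3K9me3, had its promoter tile listed in the knockout comparison and the mix. None of these counts gives a level of expression, which was not analysed here.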

How the data were processed

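RRBS was done on 1 library from each of 4 SKOV3 clones. Per the labels, MspI fragments were read as single reads of 50 bases on hg19. The submitters' processing notes name FastQC, Trim Galore 0.4.1, Bismark 0.16.1 and methylKit. The authors deposited 3 lists of 1000 bp tiles past a 25% difference and, per the names of the lists, a q-value of 0.01; the methods state a looser adjusted p-value. The deposited columns besides tile positions hold the authors' difference in percent methylation, p-value and q-value, and were not used. The coverage minimum and the treatment of the libraries in the mix are not given in the sources used here, and depth is unknown.

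Tiles were joined by overlap to GENCODE release 44 on GRCh37 in Python 3.11.15 with numpy 2.4.6. Promoter tiles lay within 2 kb of a TSS of a basic transcript. Last-exon tiles overlapped the last exon of the canonical transcript outside promoters. A tile in several classes was counted once, in the order promoter, last exon, other exon, intron, flank. Reachable tiles came from a digest of the reference, and overlap, digest and classes were tested on simulated data. The arms were split at the centromere gap.

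Genes were named by rule: the 10 with the most distinct listed tiles, up to 10 with an identical promoter tile and all with an identical last-exon tile in both single comparisons, and the 5 with the most reachable tiles and none listed. Members and lists were chosen with earlier results of these data known. Alternatives varied the extension, the promoter width, the TSS, the overlap, the last exon and the digest.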

Additional observations from a re-analysis of the deposited data

How the results depend on the processing

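Of 87 values under other settings, 82 stayed close to the reported one: counts within 1.5 times, and percentages within its 95% binomial confidence interval (Wilson). With promoters of 5 kb, 53 ZNF genes had a promoter tile listed with LY75-R-S against LY75-KO-S, where the reported count was 33, and 29 had one listed in both single comparisons, against 16, since wider windows take in more tiles. With the last exon of any basic transcript, 10 genes in the same comparison, against 6, and 5 in the mix, against 3, had a listed last-exon tile. With only fragment ends that occur once, 12.7% of reachable intron tiles were listed in shC-S vs sh-LY75-S, against 9.43%, since tiles leave the denominator.

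Chosen after seeing the data were the settings with unique ends, without ZNF536, without readthrough genes, and with 3 or more C2H2 motifs in the translated GENCODE transcript. The last stands in for the planned filter on RefSeq proteins, which was not run. No library was left out, and no other threshold was tried, since the columns this needs were not used here. No paired analysis was made because no value per library was used here.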
